A study of Mus musculus with 18 samples.

Results

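The class I olfactory receptor cluster of mouse chromosome 7 was described from 4 deposited lists of ChIP-seq regions. A region was a member where its midpoint lay in chr7:102400000-105400000 (mm10), a window of 3 Mb chosen by position and not by signal. The members were 3355 of 2377384 listed regions, namely 764 G9a, 1083 H3K9me2, 793 H3K27me3 and 715 Mef2c regions. The label was checked against the annotation (GRCm38.p6), which placed 158 receptor genes in the window, 126 protein-coding and 32 pseudogenes, among 221 annotated genes. The other protein-coding genes numbered 31, among them 12 Trim genes, 5 beta-globin genes, 5 Usp17l genes, Ubqln5, Ubqlnl, Stim1 and Rrm1.

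Per the labels, KO mice carried floxed G9a on both alleles with 1 copy of the alphaMHC-MerCreMer transgene, and Cre mice carried the transgene alone, both on C57BL/6J. MerCreMer is a Cre recombinase active on tamoxifen, driven here by the promoter of the alpha myosin heavy chain, a gene of heart muscle cells, and both genotypes carry it. The cells were enriched for cardiomyocytes, and other cells of the heart do not use this promoter. Each target had 2 KO and 2 Cre libraries, said to be biological replicates, and each genotype had 1 input library, for 18 libraries in 10 groups. The labels give neither animal age nor a tamoxifen schedule. Over Ehmt2, the targeted gene (chromosome 17, 34898463 to 34914073), the summed G9a values of 3 listed regions were 315 and 426 in KO, against 690 and 602 in Cre, with 2 regions lower and 1 higher. Of all listed G9a regions 61.5% were lower in KO, and no label places the floxed exons. These values therefore do not check the genotype labels. The sequencing depth is unknown, so no interval that needs it is given.

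Olfactory receptors are odorant receptors with several transmembrane segments, and class I is the branch shared with fish, which mammals keep in a single large cluster. A sensory neuron of the nose expresses a single receptor allele, and most receptor genes are silent in other tissues. The beta-globin genes, active in red blood cell precursors, lie inside this cluster. G9a is the enzyme, encoded by Ehmt2, that places H3K9me2. This mark of silent chromatin often lies in broad domains over gene-poor DNA and tissue-specific gene clusters. H3K27me3 is the mark of Polycomb repressive complex 2, and Mef2c is a transcription factor of muscle development. ChIP gives no expression level, so the cardiomyocyte label could not be checked from markers.

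The upstream sequences below are shown because deposited regions lay over them: at the adult beta-globin gene Hbb-bt with 3 targets lower in KO, at its neighbour Hbb-bs with H3K27me3 alone, at Ubqln5 and Olfr577 with all 4 targets lower, and at Olfr543 with all 4 higher. Each is the 250 bases before the annotated gene start, from RefSeq on GRCm38.p6, written 5′ to 3′ in the sense of the gene, and all 5 genes lie on the minus strand. Capitals mark a match, on either strand, to the CCAAT box, the CACCC box of globin promoters, the GATAA core of GATA sites, the TAATTA core of homeodomain sites, the palindromic motif of the EBF factors of sensory neurons, or the MEF2 motif. Where motifs touch or overlap, the capitals run together.
Hbb-bt (chr7:103813924-103814173, minus strand): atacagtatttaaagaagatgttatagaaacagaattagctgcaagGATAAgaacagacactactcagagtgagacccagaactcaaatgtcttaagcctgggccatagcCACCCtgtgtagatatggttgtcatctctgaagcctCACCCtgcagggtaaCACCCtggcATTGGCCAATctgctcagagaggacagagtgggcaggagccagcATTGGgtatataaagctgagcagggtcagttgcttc
Hbb-bs (chr7:103827929-103828178, minus strand): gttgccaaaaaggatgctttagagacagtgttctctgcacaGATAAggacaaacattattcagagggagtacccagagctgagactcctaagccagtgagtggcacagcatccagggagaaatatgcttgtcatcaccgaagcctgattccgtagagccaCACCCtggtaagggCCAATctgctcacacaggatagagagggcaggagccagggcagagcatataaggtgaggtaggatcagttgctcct
Ubqln5 (chr7:104129824-104130073, minus strand): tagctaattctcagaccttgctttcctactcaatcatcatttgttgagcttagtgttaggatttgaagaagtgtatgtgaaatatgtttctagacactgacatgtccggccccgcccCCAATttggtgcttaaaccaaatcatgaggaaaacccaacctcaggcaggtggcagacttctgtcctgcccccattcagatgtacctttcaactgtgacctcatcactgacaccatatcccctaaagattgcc
Olfr577 (chr7:102973991-102974240, minus strand): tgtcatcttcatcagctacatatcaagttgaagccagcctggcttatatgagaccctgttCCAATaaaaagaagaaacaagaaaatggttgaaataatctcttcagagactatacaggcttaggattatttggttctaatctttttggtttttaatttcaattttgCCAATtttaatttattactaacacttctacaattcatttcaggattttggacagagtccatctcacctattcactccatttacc
Olfr543 (chr7:102477903-102478152, minus strand): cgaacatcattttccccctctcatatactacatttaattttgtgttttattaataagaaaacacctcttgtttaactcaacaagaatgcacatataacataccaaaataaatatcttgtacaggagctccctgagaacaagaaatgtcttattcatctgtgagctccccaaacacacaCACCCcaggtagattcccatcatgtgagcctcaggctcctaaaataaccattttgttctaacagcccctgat

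The Hbb-bt stretch held 3 CCAAT, 3 CACCC and 1 GATAA match, and the Hbb-bs stretch 1 of each. After alignment the pair shared 70.9% of positions. Of the 136 upstream stretches of the window, GATAA was in 65 (47.8%), against 22.6% of all 32851 upstream stretches of the genome. TAATTA was in 16 (11.8%), against 4.84%. CACCC was in 45 (33.1%), against 52.0%, and CCAAT in 52 (38.2%), against 33.8%. Over the 109 receptor stretches alone, GATAA was in 52.3%, TAATTA in 14.7%, CACCC in 23.9% and CCAAT in 31.2%. The CCAAT share of receptor stretches thus lay below that of all stretches. No stretch of the window held the EBF or the MEF2 motif, which 0.779% and 0.508% of all stretches held. The median share of G or C was 36.4% over the 109 receptor stretches of the window, against 45.6% over its 27 others and 52.4% over all stretches, and its part in these shares was not tested. The spans of 104 of the 126 protein-coding receptor genes were whole multiples of 3 bases and 109 were shorter than 1.2 kb, the size of a coding sequence. For such models the stretch lies before the coding sequence, and a true start may lie farther upstream.

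Of these upstream stretches, 7 genes had a listed region of all 4 targets, and 29 had none. The same shares over all upstream stretches of the genome are not given, so these counts are no result about the cluster. The adult beta-globin gene Hbb-bt is a main beta-globin of the mature red blood cell. In the authors' deposited G9a list, its upstream region (chr7:103813551-103814250) had values of 36 and 0 in KO, against 193 and 119 in Cre. The authors' deposited H3K9me2 list gave 81 and 153 in KO, against 341 and 296 in Cre, over chr7:103813651-103815350. Their deposited Mef2c list gave 3 and 16 in KO, against 181 and 98 in Cre, over chr7:103813751-103814400. In each of the 3 lists both KO values lay below both Cre values, and no H3K27me3 region lay over this stretch. By limma on log2(value + 1), the G9a difference was -4.65 (SE 1.98, adjusted p = 0.454), the H3K9me2 difference -1.50 (SE 0.52, adjusted p = 0.3998) and the Mef2c difference -4.02 (SE 1.39, adjusted p = 0.399). None passed adjustment over all listed regions. The G9a and Mef2c differences rest on KO values at or near 0, and their size depends on the pseudocount of 1.

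Olfr577 is a class I receptor gene with an annotated span of chr7:102973052-102973990. Over its upstream stretch the authors' deposited lists gave G9a values of 157 and 153 in KO, against 277 and 280 in Cre. The deposited H3K9me2 values there were 69 and 61 in KO, against 128 and 135 in Cre. For H3K27me3 the authors' deposited list had 142 and 58 in KO, against 194 and 366 in Cre. Mef2c had 99 and 16 in KO, against 135 and 183 in Cre, in the deposited list. All 8 KO values therefore lay below the Cre values of their target, with log2 ratios of the means of -0.84, -1.01, -1.48 and -1.45 in the same order of targets. Ubqln5, a gene of the ubiquilin family of ubiquitin-binding proteins, was also listed lower for all 4 targets. Its deposited Mef2c values were 159 and 37 in KO, against 374 and 439 in Cre, and its deposited G9a values were 63 and 309 in KO, against 301 and 468 in Cre. The KO and Cre values overlapped for G9a and not for the other 3 targets. At Olfr543 all 4 deposited regions were higher in KO, by log2 ratios between 0.67 (G9a) and 1.16 (H3K9me2), and only the H3K9me2 values of KO (149 and 75, against 59 and 40 in Cre) lay apart. The other 4 genes, the receptors Olfr65, Olfr631, Olfr644 and Olfr688, had upstream regions of both directions.

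**Figure D1:**
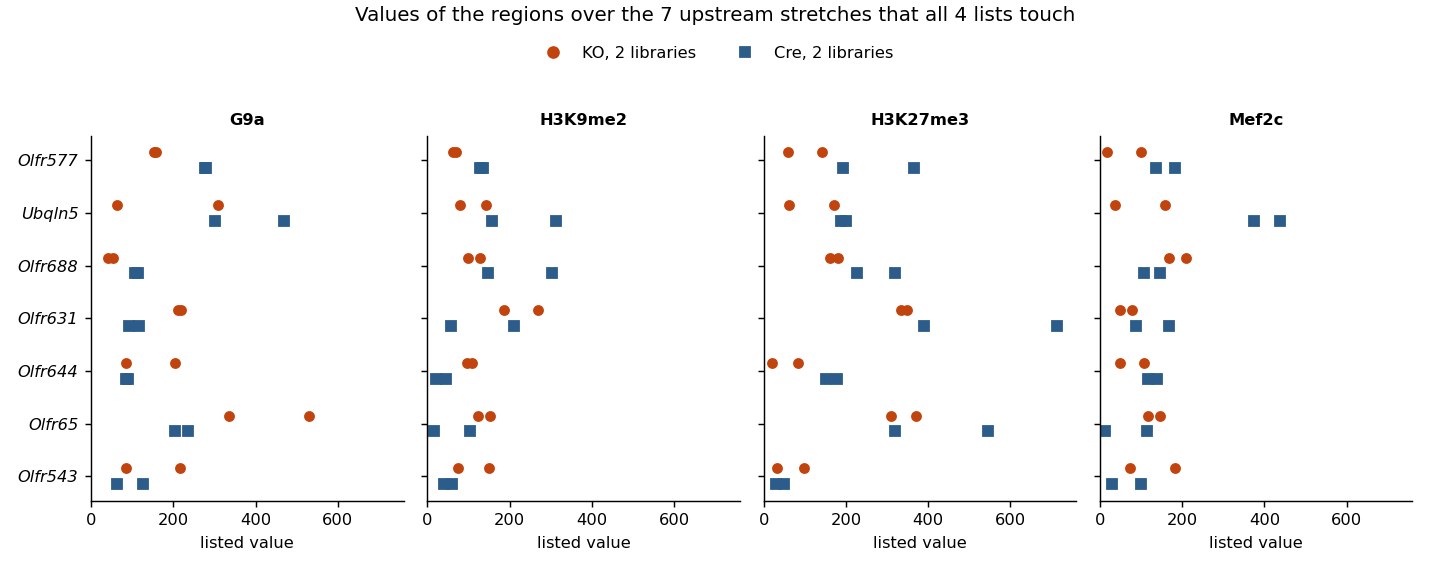
Values in the authors' deposited lists of the region over each of the 7 upstream stretches that all 4 lists touched, with 1 row per gene and 1 panel per target; circles are the 2 KO libraries and squares the 2 Cre libraries. The KO circles of Olfr577 lie left of the Cre squares in every panel, and those of Olfr543 lie right of both squares for H3K9me2 alone.

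Over all promoters of the window, G9a regions lower in KO touched 22 of 109 receptor stretches (20.2%) and 6 of the 27 others (22.2%), against 17.1% of all 32851 stretches, and regions higher in KO touched 10 receptor stretches (9.17%, against 9.17% of all) and 0 of the others. H3K9me2 regions lower in KO touched 22 receptor stretches (20.2%) and 6 others (22.2%), against 9.08% of all. H3K9me2 regions higher in KO touched 27 receptor stretches (24.8%) and 2 others (7.41%), against 12.9% of all. H3K27me3 regions lower in KO touched 27 receptor stretches (24.8%) and 7 others (25.9%), against 19.0% of all, and those higher in KO touched 6 (5.50%) and 2 (7.41%), against 13.5%. Mef2c regions lower in KO touched 17 receptor stretches (15.6%) and 7 others (25.9%), against 14.6% of all, and those higher in KO touched 16 (14.7%) and 4 (14.8%), against 8.19%. These shares are descriptions, since neighbouring receptor genes share regions.

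Across the whole window, G9a, H3K27me3 and Mef2c were listed lower in KO at most regions and H3K9me2 higher at most, as across the genome. G9a was lower in KO at 496 regions and higher at 268, so that 64.9% were lower, against 61.5% of all listed G9a regions. H3K27me3 was lower at 530 and higher at 263, or 66.8%, against 63.3% of all. Mef2c was lower at 477 and higher at 238, or 66.7%, against 61.7% of all. H3K9me2 was higher at 672 regions and lower at 411, or 62.0% higher, against 60.3% of all (and 38.0% lower, against 39.7%). Each share lay near its background and is no result about the cluster. The authors list only regions that differ, and sequence outside them has no value here. In bulk cells, less signal per cell cannot be told apart from fewer cells carrying it.

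The median log2 ratio of KO to Cre was -0.77 for G9a and 0.74 for H3K9me2, and -0.73 and -0.83 for H3K27me3 and Mef2c, against -0.73, 0.72, -0.64 and -0.75 over all listed regions of these targets. KO and Cre values were apart, with no overlap in either direction, at 62.6% of the G9a regions, 67.0% of the H3K9me2 regions, 64.8% of the H3K27me3 regions and 65.6% of the Mef2c regions. The shares over all listed regions were 61.5%, 65.7%, 67.1% and 65.9%. With 2 libraries against 2, the smallest exact two-sided p is 0.333, so no region can pass an exact test alone.

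By limma with Benjamini-Hochberg adjustment over all listed regions of a target, no window region passed an adjusted p of 0.05 for any target. The background share was 0% for G9a, H3K9me2 and Mef2c and 0.00119% for H3K27me3. At an unadjusted p under 0.05, G9a had 58 window regions, 48 lower and 10 higher (7.59%, against 6.50% of all, 5.12% lower and 1.38% higher). H3K9me2 had 137, 22 lower and 115 higher (12.7%, against 11.1%, of all 2.89% lower and 8.19% higher). H3K27me3 had 116, 100 lower and 16 higher (14.6%, against 15.3%, of all 12.3% lower). Mef2c had 98, 85 lower and 13 higher (13.7%, against 11.3%, of all 8.62% lower and 2.66% higher). These p-values are too small, because the authors listed regions that differ. Scaling the libraries to the same median over all listed regions changed the split to 26 lower and 30 higher G9a regions, 71 and 55 H3K9me2 regions, 54 and 40 H3K27me3 regions, and 48 and 36 Mef2c regions. On that scale the lower ones made up 46.4% of these G9a regions in the window, against 36.7% of those in the whole list. The same shares were 56.3%, against 63.4%, with H3K9me2, 57.4%, against 38.1%, with H3K27me3, and 57.1%, against 35.8%, with Mef2c. It moved the median log2 ratio of all listed regions by 0.31, -0.29, 0.28 and 0.33 for these targets, so a difference of this size turns on the scale of the libraries. Single libraries moved these counts, in the window and over whole lists. A fit without 1 value leaves 1 library in a group, so its counts are not given.

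The summed G9a values of the window were 72208 and 73666 in the KO libraries, against 94959 and 93964 in the Cre libraries. H3K9me2 summed to 135749 and 139489 in KO, against 121321 and 102792 in Cre. H3K27me3 summed to 94281 and 101779 in KO, against 132512 and 137617 in Cre. The KO and Cre sums did not overlap for these targets, with G9a and H3K27me3 lower and H3K9me2 higher in KO. Mef2c summed to 56575 and 63345 in KO, against 83829 and 82633 in Cre, again apart and lower in KO. The regions summed cover 564150 (G9a), 827600 (H3K9me2), 688900 (H3K27me3) and 496450 (Mef2c) bases. The log2 ratios of the sums were -0.37, 0.30, -0.46 and -0.47, against -0.29, 0.26, -0.31 and -0.32 over all listed regions. With libraries scaled to the same median they were -0.05, 0.0079, -0.18 and -0.15. As a share of all listed signal of a library, the window held 0.128% and 0.129% of Mef2c signal in KO, against 0.142% and 0.145% in Cre (exact two-sided permutation p = 0.333, the smallest possible). For H3K27me3 the shares were 0.103% and 0.111% in KO, against 0.115% and 0.123% in Cre (exact permutation p = 0.333). The G9a and H3K9me2 shares of KO and Cre overlapped (exact permutation p = 0.667 each), and over these 4 tests the adjusted p was 0.667 for every target.

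**Figure D2:**
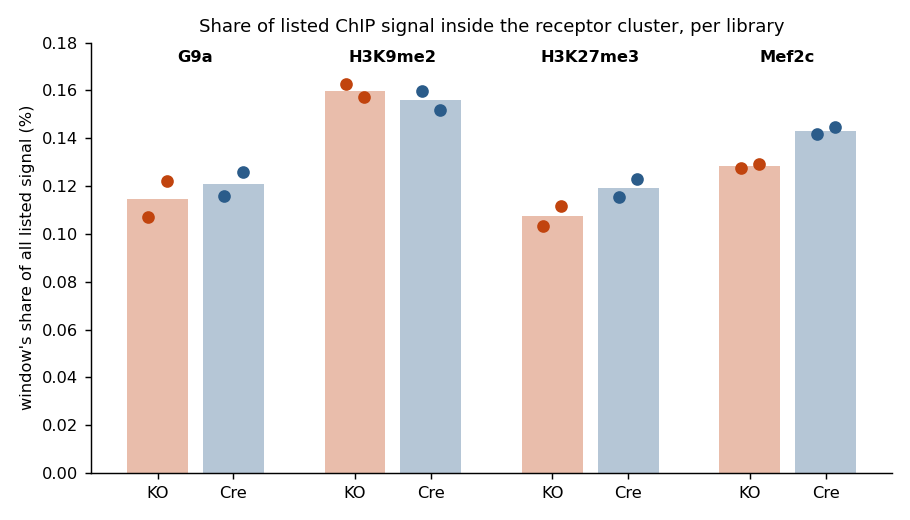
Share of all listed signal of a target that lay inside the window, in percent, for each library; points are the 2 libraries of a group and bars their mean. The Mef2c and H3K27me3 points of KO lie below those of Cre (0.128% against 0.143%, and 0.107% against 0.119%), and the G9a and H3K9me2 points of KO and Cre overlap.

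Listed regions of H3K9me2 covered 27.6% of the window, against 19.9% of the genome. H3K27me3 covered 23.0%, against 18.5%, Mef2c 16.5%, against 13.9%, and G9a 18.8%, against 17.6%. On the whole of chromosome 7 the listed regions covered 23.5% with H3K9me2, 24.0% with H3K27me3, 16.2% with Mef2c and 21.3% with G9a, so the window lay above its own chromosome with H3K9me2 and Mef2c and below it with H3K27me3 and G9a. Set beside it, the large receptor cluster of chromosome 2 (85000000 to 90000000), with 208 protein-coding receptor genes, differed most in H3K27me3. The chromosome 7 window held 264 H3K27me3 regions per Mb, against 152 per Mb and 11.1% covered in the chromosome 2 cluster and 190 per Mb overall. Of the H3K9me2 regions, 62.0% were higher in KO in the chromosome 7 window and 71.0% in the chromosome 2 cluster, where they covered 29.1%. G9a was lower at 64.9% of the chromosome 7 regions, against 57.0% of the chromosome 2 regions. These differences between clusters were not tested.

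The window was then cut into 30 bins of 100 kb. Lower regions outnumbered higher ones in 28 of the 30 bins for G9a, and likewise in 28 for H3K27me3 and 28 for Mef2c. For H3K9me2 higher regions outnumbered lower ones in 26 bins and lower ones outnumbered higher ones in 2. Over whole lists, 61.5% of G9a, 63.3% of H3K27me3 and 61.7% of Mef2c regions were lower, and 60.3% of H3K9me2 regions higher. Bins outside the window were not counted, so these counts are no result about the cluster. The bin with the strongest H3K9me2 gain, 104900000 to 105000000, had a log2 ratio of summed values of 0.76. The strongest falls of the sums were -0.87 for G9a at 102900000 to 103000000, -0.91 for H3K27me3 at 103200000 to 103300000, and -0.97 for Mef2c at 105100000 to 105200000.

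H3K27me3 was the target whose listed regions were spread most unevenly. From 103100000 to 103800000, a stretch of 7 bins found after the values were seen, each bin held 8 to 15 H3K27me3 regions, and they covered 6.71% of the stretch. In the other 23 bins H3K27me3 covered 27.9%. The stretch holds 38 protein-coding receptor genes, 9 receptor pseudogenes and, as other protein-coding genes, Usp17ld and Usp17lc. The other targets went through it with little change: G9a covered 16.5% of it and 19.5% of the rest, H3K9me2 27.4% and 27.7%, and Mef2c 15.1% and 17.0%. The share of H3K27me3 regions lower in KO was 65.3% in the stretch and 67.0% outside it. The bin most covered by H3K27me3 was the first, 102400000 to 102500000, with 48500 bases at the Stim1 and Rrm1 edge, and the least covered, with 4450 bases, was 103200000 to 103300000.

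**Figure D3:**
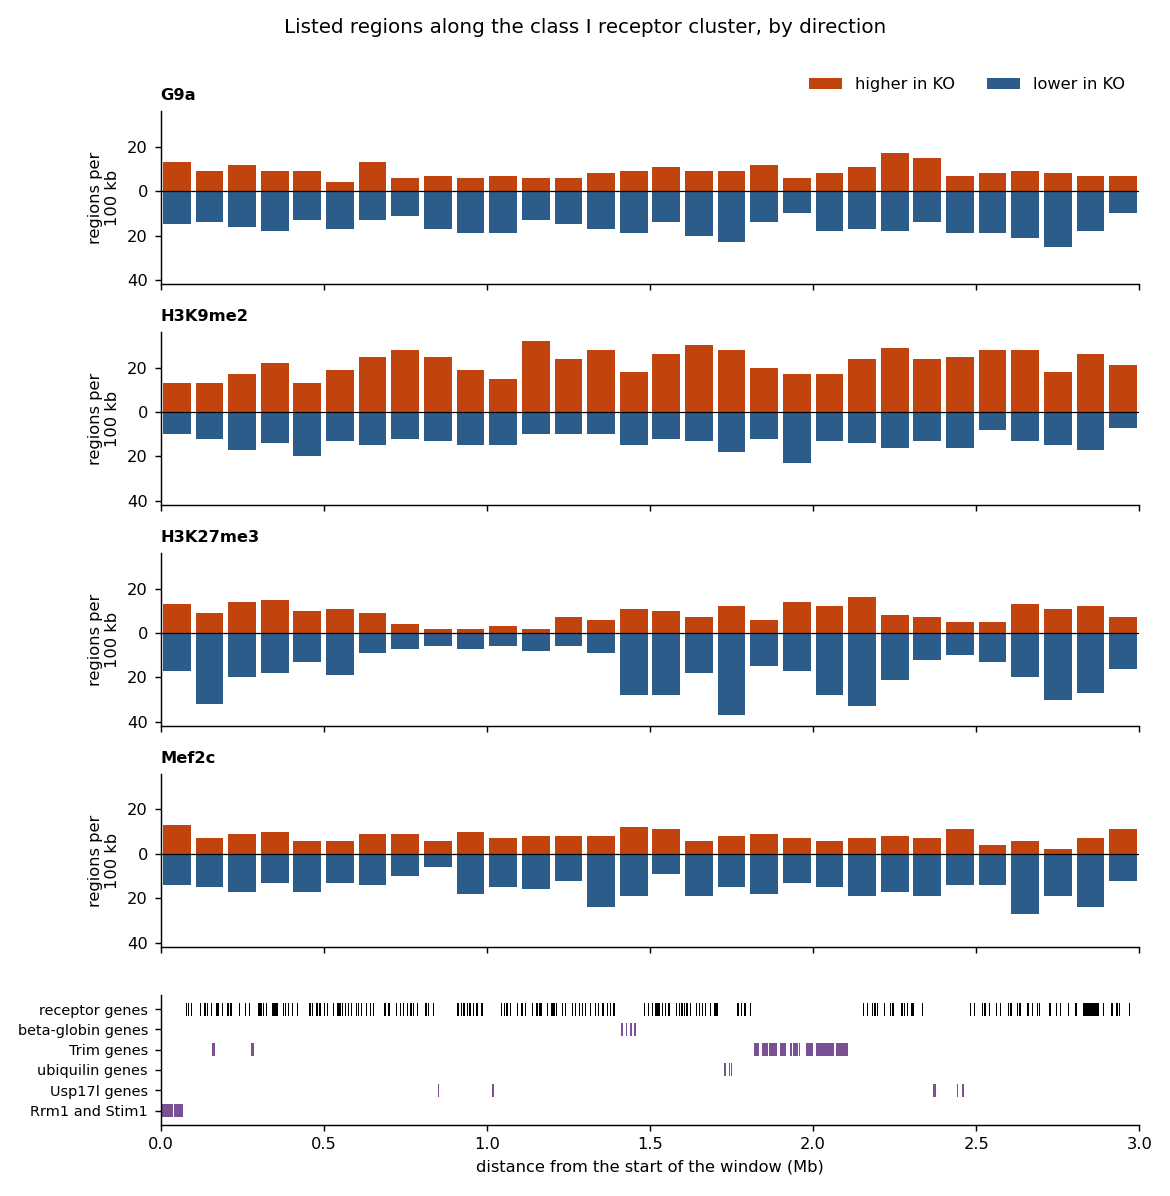
Listed regions per 100 kb along the 3 Mb window for each target, with regions higher in KO drawn upward and regions lower in KO drawn downward, above the positions of the gene groups. H3K9me2 bars are taller above the line in 26 of 30 bins, and the bars of the other 3 targets below it in 28 of 30. Bins outside the window were not counted. H3K27me3 bars are short over the receptor genes between 0.7 and 1.4 Mb.

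Receptor genes were set beside the other genes of the window, a region being counted at a gene where it touched the gene span or 2 kb either side. At receptor genes, 69.0% of 239 G9a regions were lower in KO, against 63.6% of 121 regions at other protein-coding genes and 62.9% of 404 regions at neither. For Mef2c the shares were 70.9% of 234 at receptors, 62.5% of 112 at other genes and 65.5% of 368 at neither. For H3K27me3 they were 68.9% of 270, 66.4% of 137 and 65.7% of 385. H3K9me2 was higher in KO at 59.2% of 373 regions at receptors, 52.9% of 153 at other genes and 66.4% of 557 at neither. These shares were not tested, since a region can serve several neighbouring genes. Listed H3K9me2 regions covered 32.3% of the spans of protein-coding receptors and 46.0% of the spans of receptor pseudogenes, against 24.1% of the spans of other protein-coding genes. The H3K27me3 figures were 31.0%, 28.0% and 28.9%. Receptor coding sequences resemble each other within subfamilies, to a degree that was not measured here. No label says how reads with several matches were treated, and values over these spans are uncertain to that extent.

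Counted by gene, 57 of the 126 protein-coding receptors had only lower G9a regions (45.2%), 17 only higher ones, 30 both and 22 none. Of all 21887 protein-coding genes 13.9% had only lower G9a regions, 8.14% only higher ones, 66.1% both and 11.9% none, and of the 984 protein-coding receptors elsewhere 36.4% had. Receptor spans have a median of 957 bases, against 7563 bases for the other protein-coding genes of the window, and the part of length in these shares was not tested. Mef2c gave 54 receptors with only lower regions (42.9%, against 14.3% of all genes and 35.3% of receptors elsewhere). It gave 21 with only higher ones (16.7%, against 7.40% of all genes). H3K27me3 gave 41 with only lower regions (32.5%, against 12.6% of all genes and 29.1% of receptors elsewhere) and 12 with only higher ones (9.52%, against 8.87% of all genes). H3K9me2 gave 32 with only higher regions (25.4%, against 14.4% of all genes and 35.9% of receptors elsewhere) and 18 with only lower ones (14.3%, against 7.23% of all genes). Both directions of H3K9me2 were found at 68 receptors (54.0%, against 67.4% of all genes), and no H3K27me3 region at 32 (25.4%, against 33.4%). Among the 31 other protein-coding genes of the window, 22 had G9a regions of both directions and 7 only lower ones.

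The 32 receptor pseudogenes, copies that no longer encode a full receptor, were counted in the same way. Only lower G9a regions were found at 19 of them (59.4%, against 36.4% of receptor genes elsewhere and 13.9% of all protein-coding genes) and only higher ones at 4 (12.5%, against 16.1% and 8.14%). Only lower H3K27me3 regions were found at 15 (46.9%, against 29.1% and 12.6%) and only higher ones at 0 (against 11.2% and 8.87%). Mef2c gave 13 with only lower regions (40.6%, against 35.3% and 14.3%) and 5 with only higher ones (15.6%, against 17.3% and 7.40%). H3K9me2 had both directions at 16 pseudogenes (50%, against 42.8% of receptor genes elsewhere and 67.4% of all protein-coding genes), only higher regions at 8 (25%, against 35.9% and 14.4%) and only lower ones at 7 (21.9%, against 15.1% and 7.23%). Listed G9a regions covered 27.7% of the pseudogene spans and 24.2% of the spans of protein-coding receptors, against 18.6% of the spans of other protein-coding genes.

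**Figure D4:**
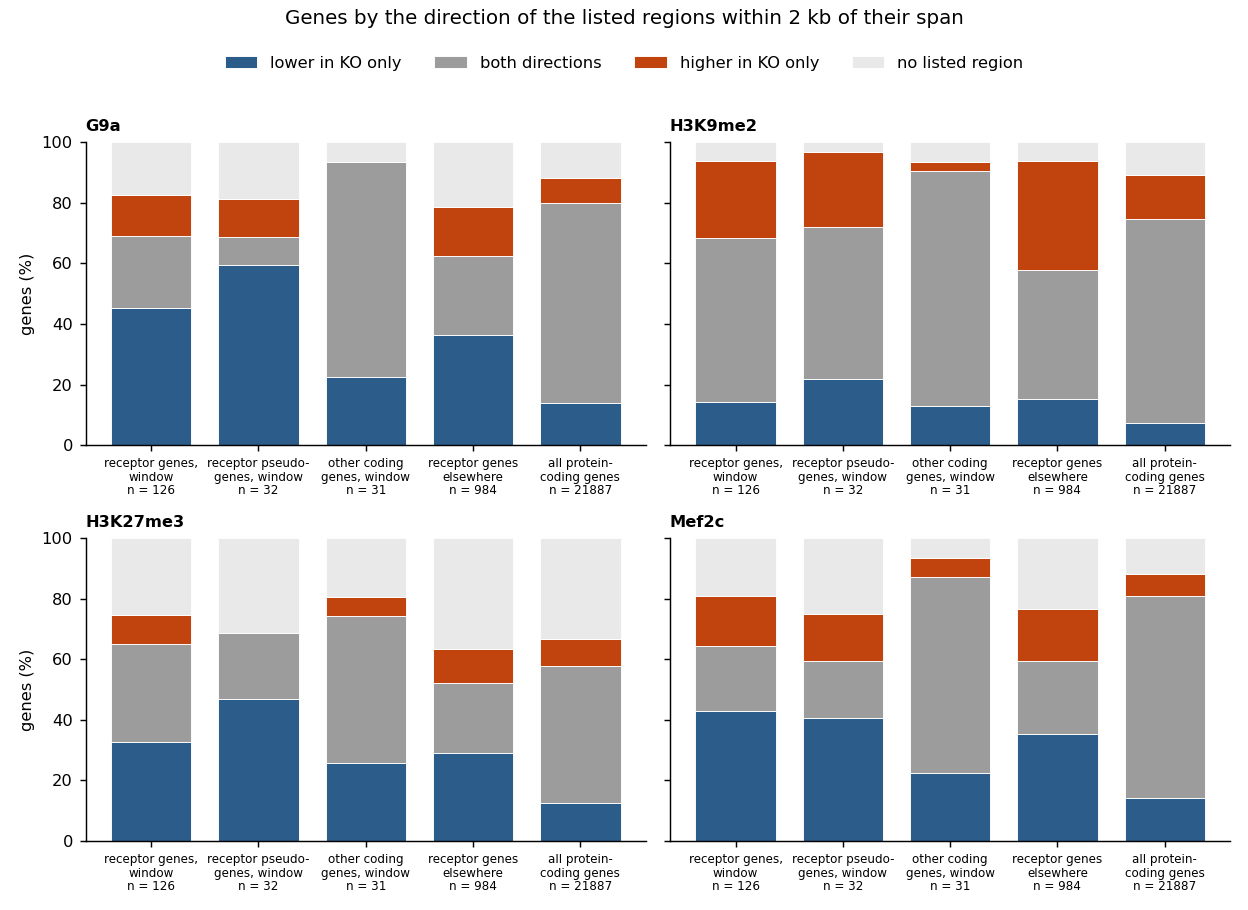
Share of genes, in percent, with listed regions of only 1 direction, both or none within 2 kb of the span, for each target and 5 gene sets with their numbers. Receptor genes of the window and elsewhere have more genes with only lower G9a regions (45.2% and 36.4%) than all protein-coding genes (13.9%), and 71.0% of the other coding genes of the window have G9a regions of both directions.

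Of the 57 receptors with only lower G9a regions, 30 had only lower Mef2c regions and 23 only lower H3K27me3 regions. Only lower H3K9me2 regions were found at 8 of them and only higher ones at 16. Of all 126 protein-coding receptors of the window, 42.9% had only lower Mef2c and 32.5% only lower H3K27me3 regions. With H3K9me2, 14.3% of the 126 had only lower and 25.4% only higher regions. No such joint share over all genes is given, and these counts were not tested. Olfr685 was the protein-coding receptor with only lower regions in all 4 lists, and Olfr548-ps1 the pseudogene. Subfamilies (MOR families, named in the annotation for 152 of the receptor genes) were compared where they had at least 6 genes in the window. Over whole lists, the lower share was 61.5% of G9a, 63.3% of H3K27me3 and 61.7% of Mef2c regions, and 60.3% of H3K9me2 regions were higher. MOR31 with 14 genes had 31 of 36 H3K27me3 regions and 17 of 21 G9a regions lower in KO, but 8 of 16 Mef2c regions. MOR32 with 12 genes had 15 of 17 Mef2c regions lower, and MOR34 with 9 genes 13 of 15. MOR8 with 7 genes had 6 of 8 G9a, 5 of 8 H3K27me3 and 4 of 8 Mef2c regions lower in KO. For H3K9me2, MOR13 and MOR34 were higher at 13 of 17 and 13 of 18 regions, MOR8 at 12 of 20, MOR14 at 11 of 24 and MOR40 at 8 of 19. Some genes of a subfamily are neighbours and others lie far apart, as the MOR31 genes Olfr547 (from 102534749) and Olfr617 (from 103584024) do. These counts were not tested.

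Among regions at receptors, the strongest by the authors' own p were chosen by rule. The G9a region beside Olfr552 (chr7:102607151-102608650, 1842 bases from the gene) had 53 and 72 in KO, against 477 and 192 in Cre, in the authors' deposited list. The authors' deposited H3K27me3 list held nearly the same region (chr7:102607151-102608700), with 13 and 115 in KO, against 255 and 461 in Cre. Both targets were thus low in both KO libraries there, with no overlap of KO and Cre. On the other side of Olfr552 the authors' deposited G9a list had a region higher in KO (chr7:102602151-102603000), with 156 and 278 in KO, against 63 and 23 in Cre. By limma the 2 G9a differences were -2.27 (SE 0.67, adjusted p = 0.454) and 2.42 (SE 0.79, adjusted p = 0.454), and neither passed adjustment.

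Olfr646 also had G9a regions of both directions. At 366 bases from its span (chr7:104096401-104096950) the authors' deposited list had 0 and 3 in KO, against 126 and 148 in Cre. Inside its span (chr7:104102151-104103350) the deposited values were 266 and 338 in KO, against 82 and 90 in Cre. The KO values lay apart from the Cre values in both, below them in the first region and above them in the second. H3K9me2 over the second place (chr7:104102501-104103350) had 140 and 200 in KO, against 11 and 57 in Cre, and so was also higher in KO, in the authors' deposited list.

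For H3K9me2, Olfr689 led the lower regions and Olfr653 the higher ones. In the authors' deposited H3K9me2 list Olfr689 (chr7:105313101-105314700, of which 695 bases lie in the gene) had 35 and 122 in KO, against 430 and 328 in Cre. The pseudogene Olfr565-ps1 followed in the deposited list, with 34 and 9 in KO, against 200 and 164 in Cre. In both, each KO value was below each Cre value. Beside Olfr653 (chr7:104578101-104578750) the authors' deposited values were 134 and 166 in KO, against 2 and 9 in Cre. At Olfr659 (chr7:104671401-104672500) they were 236 and 242 in KO, against 76 and 16 in Cre, in the same deposited list. These KO values lay above those of Cre at both genes. The highest -log10 p of a higher H3K9me2 region, 61.8, belonged to a place away from any gene (chr7:105017001-105018650), with 359 and 400 in KO, against 44 and 51 in Cre, in the authors' deposited list.

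Mef2c had its strongest window region at the receptor gene Olfr69. The authors' deposited list gave 20 and 60 in KO, against 307 and 439 in Cre, over chr7:103766001-103767300, which reaches 24 bases into the gene. The limma difference was -3.36 (SE 0.68, unadjusted p = 0.000566, adjusted p = 0.399). Among the receptors, Olfr596 followed with deposited values of 63 and 172 in KO, against 407 and 361 in Cre. KO and Cre values did not overlap at either gene. Beside Olfr586 the authors' deposited Mef2c values were 308 and 160 in KO, against 85 and 45 in Cre, so KO was higher. Beside Olfr612 the single value of 413 set the difference, since the deposited KO values were 69 and 413, against 79 and 78 in Cre, and without the second KO value the limma difference was -0.18.

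H3K27me3 at receptors was led among lower regions by the Olfr552 region and by the pseudogene Olfr650-ps1, which one region (chr7:104205551-104207900) covers whole. The authors' deposited list gave Olfr650-ps1 213 and 171 in KO, against 819 and 347 in Cre. Its deposited G9a values (chr7:104206001-104207250) were 82 and 80 in KO, against 373 and 117 in Cre. Its Mef2c values were 59 and 28 in KO, against 180 and 141 in Cre, in the authors' deposited list. In these regions all 3 targets were lower in both KO libraries. A Mef2c region higher in KO also lay within 2 kb of this pseudogene. Its strongest H3K9me2 region, 1395 bases away, had 208 and 251 in KO, against 143 and 57 in Cre, in the deposited list. Among higher H3K27me3 regions, Olfr553 had deposited values of 323 and 234 in KO, against 147 and 61 in Cre, and Olfr667 had 119 and 187 in KO, against 28 and 44 in Cre.

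Regions of all 4 lists touched 72 of the 158 receptor genes. Among protein-coding genes of the window they touched 60 of the 126 receptors and 22 of the 31 others. The share over all protein-coding genes is not given, so the count is no result about receptors. The 5 with the highest summed -log10 p were Olfr687, Olfr650-ps1, Olfr646, Olfr78 and Olfr69, and the annotated span of Olfr687 (105227717 to 105276461) is long and so touches many regions. Olfr78, known in blood vessel muscle and the carotid body as a receptor for small acids, had no single direction. Its strongest Mef2c region (chr7:102759351-102760200) had 27 and 55 in KO, against 243 and 95 in Cre, in the authors' deposited list. Its strongest H3K9me2 region (chr7:102760751-102761600) had 167 and 254 in KO, against 78 and 10 in Cre, in the deposited list. KO was thus lower for Mef2c and higher for H3K9me2 next to each other. H3K27me3 at Olfr78 (chr7:102742901-102744550) had 183 and 174 in KO, against 363 and 326 in Cre, in the authors' deposited list. Summed over all its regions, Olfr78 had log2 ratios of -0.15 (G9a), 0.81 (H3K9me2), -0.11 (H3K27me3) and -0.53 (Mef2c).

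At the beta-globin genes and the pseudogene Hbb-bh3, regions of every target were listed. G9a had 9, with 7 lower and 2 higher in KO, and a median log2 ratio of -1.17. Mef2c had 11, with 7 lower and 4 higher (median -0.86), and H3K27me3 had 15, with 8 lower and 7 higher (median -0.56). H3K9me2 had 13, with 6 lower and 7 higher (median 0.62). Over whole lists the lower shares were 61.5% (G9a), 61.7% (Mef2c), 63.3% (H3K27me3) and 39.7% (H3K9me2), and the counts at these few regions were not tested. The smallest unadjusted limma p was 0.0198 (G9a), 0.0187 (H3K9me2), 0.0134 (H3K27me3) and 0.00704 (Mef2c), and none passed adjustment. The summed G9a values were 737 and 356 in KO, against 1191 and 870 in Cre. Those of H3K9me2 were 1407 and 1499 in KO, against 1768 and 1503 in Cre, all KO sums being below the Cre sums for both targets.

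The adult genes are Hbb-bt and Hbb-bs, and the embryonic genes Hbb-bh1 and Hbb-y. At Hbb-bs (gene ID 100503605) the upstream stretch had an H3K27me3 region alone (chr7:103827701-103828700), with 124 and 90 in KO, against 231 and 190 in Cre, in the authors' deposited list. Farther up, the deposited G9a region (chr7:103829301-103830050) had 47 and 22 in KO, against 209 and 137 in Cre. At the other end of Hbb-bs the authors' deposited G9a values were higher in KO, 122 and 151, against 56 and 17 in Cre (chr7:103825401-103826050). The 3 regions had KO and Cre values apart, with 2 directions of G9a around the same gene. Between Hbb-bs and Hbb-bh3 the widest H3K27me3 region of the locus (chr7:103830751-103832600) had 151 and 247 in KO, against 456 and 456 in Cre, in the deposited list.

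At the globin gene Hbb-bh2, an H3K9me2 region (chr7:103839951-103841050) with 784 bases in the gene and 588 bases from Hbb-bh1 had 191 and 194 in KO, against 361 and 407 in Cre, in the authors' deposited list. The G9a region there (chr7:103840151-103841300) had deposited values of 145 and 69 in KO, against 224 and 225 in Cre. Both were lower in both KO libraries. Both were overlapped by 2 H3K27me3 regions of opposite direction. The one inside Hbb-bh2 (chr7:103839651-103840350) was higher in KO, its values being 207 and 88 in KO, against 30 and 61 in Cre, in the deposited list. The one reaching into Hbb-bh1 (chr7:103840701-103842050) was listed as lower in KO, with deposited values of 96 and 131 in KO, against 414 and 117 in Cre, which overlapped. Without the first Cre value its limma difference was -0.06. At Hbb-y the Mef2c region (chr7:103851651-103852300) had deposited values of 24 and 39 in KO, against 176 and 171 in Cre, and a limma difference of -2.46 (SE 0.73, unadjusted p = 0.00704, adjusted p = 0.399). H3K9me2 at the far side of Hbb-y (chr7:103854051-103854800) had 160 and 118 in KO, against 30 and 52 in Cre, in the authors' deposited list. KO and Cre did not overlap in either Hbb-y region. The globin genes also resemble each other, so values over their spans carry the same doubt as those of the receptors.

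**Figure D5:**
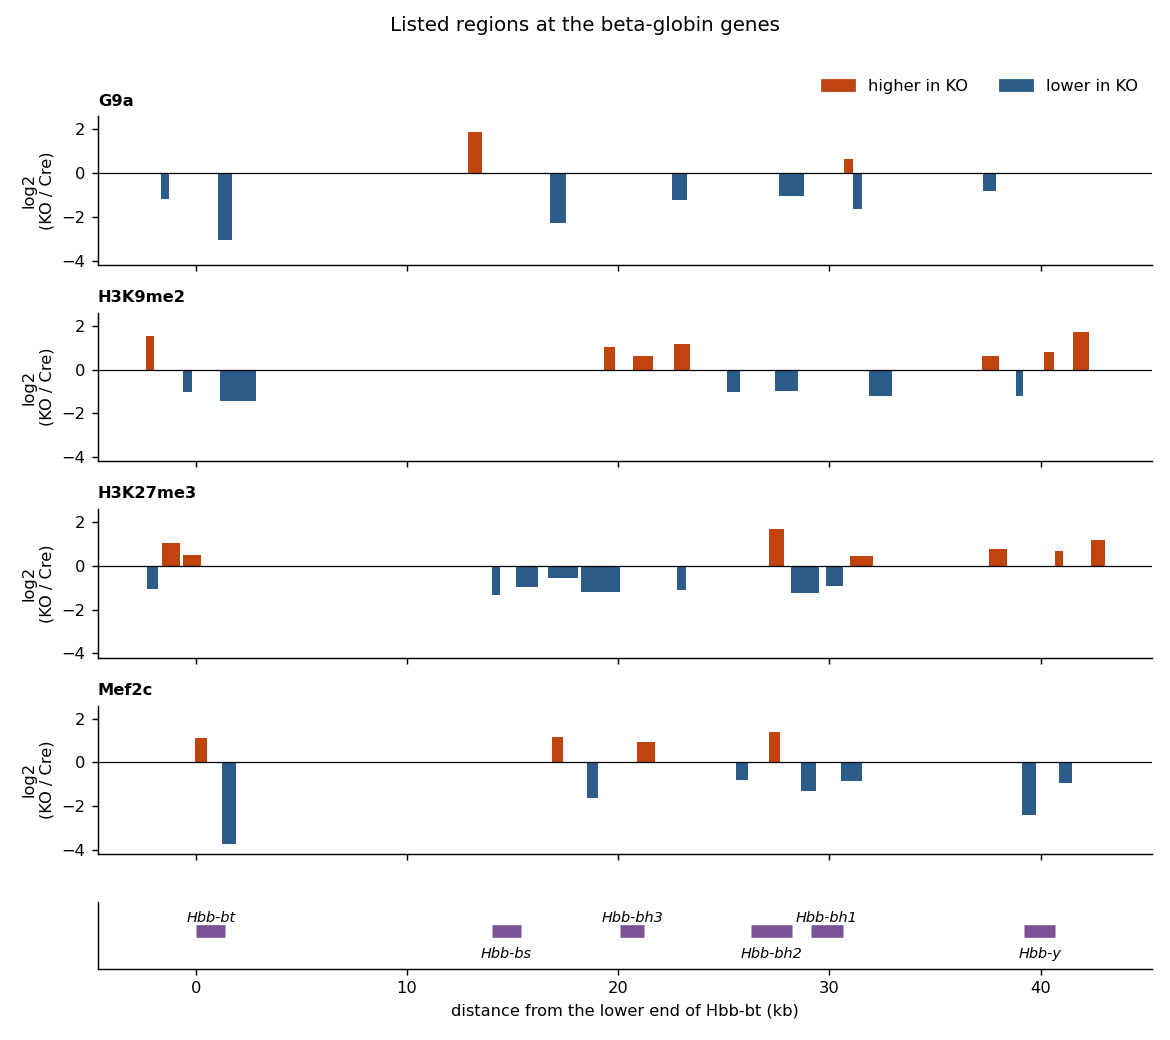
Listed regions at the beta-globin genes, drawn to scale in kb from the lower end of Hbb-bt, with log2 of mean KO over mean Cre (pseudocount 1) as height. The G9a and Mef2c bars just above Hbb-bt reach -3.05 and -3.74, and H3K9me2 and H3K27me3 bars point both ways along the locus.

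The Trim genes encode tripartite-motif proteins with roles in antiviral defence. Of the 61 G9a regions at Trim genes 38 were lower in KO, of 77 H3K27me3 regions 54 and of 61 Mef2c regions 41. Over whole lists the lower shares were 61.5%, 63.3% and 61.7%. The 87 H3K9me2 regions were nearly even, with 41 lower and 46 higher, against 60.3% higher of all. These counts were not tested. Per gene, 10 of the 12 had G9a regions of both directions, 1 only lower ones and 1 none. The widest G9a region of the window lay inside Trim30a (chr7:104460151-104462500), with 142 and 187 in KO, against 544 and 602 in Cre, in the authors' deposited list. KO lay below Cre, with a limma difference of -1.81 (SE 0.52, adjusted p = 0.454). Inside Trim5 (chr7:104281751-104282150) the deposited G9a values were 119 and 66 in KO, against 0 and 0 in Cre. The limma difference was 6.49 (SE 4.91, unadjusted p = 0.224, adjusted p = 0.454), and its size depends on the pseudocount of 1. Trim5 as a whole had G9a regions of both directions. H3K27me3 at Trim34a and Trim34b had 4 and 2 lower regions and no higher one, and at Trim30a 18 lower and 6 higher.

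Usp17le, one of the Usp17l deubiquitinase genes, held the region with the highest mean value of the window for G9a and for H3K9me2. In the authors' deposited G9a list its region (chr7:104771801-104772900) had 449 and 509 in KO, against 469 and 237 in Cre. In the deposited H3K9me2 list the region at the same place (chr7:104770551-104773000) had 990 and 718 in KO, against 725 and 532 in Cre. KO and Cre values overlapped in both. Beside it the widest H3K9me2 region (chr7:104774351-104776950) was lower in KO, with 401 and 210, against 695 and 587 in Cre, in the authors' deposited list. Usp17l genes are near-identical copies, so reads may be shared among them. Over the family, 16 of 25 G9a regions, 8 of 14 H3K9me2 regions, 11 of 15 H3K27me3 regions and 10 of 13 Mef2c regions were lower in KO. The whole-list shares were 61.5%, 39.7%, 63.3% and 61.7% in the same order, and these counts were not tested.

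Ubqln5 and Ubqlnl, genes of the ubiquilin family, lie between receptor and Trim genes. Ubqln5 had 3 H3K27me3 regions lower in KO and 0 higher, and Ubqlnl had 5 lower and 1 higher. The summed H3K27me3 values at Ubqln5 were 364 and 272 in KO, against 682 and 501 in Cre, a log2 ratio of -0.89. At Ubqlnl they summed to 578 and 384 in KO, against 797 and 1005 in Cre, a log2 ratio of -0.90. The KO sums lay below the Cre sums at both genes. H3K9me2 had 1 lower and 2 higher regions at Ubqln5, and 1 lower and 3 higher at Ubqlnl. Over whole lists 63.3% of H3K27me3 regions were lower and 60.3% of H3K9me2 regions higher, and the counts at these genes were not tested.

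Stim1, the calcium sensor of the endoplasmic reticulum, and Rrm1, a subunit of ribonucleotide reductase, border the cluster and held its broadest H3K27me3 signal. The widest region, inside Stim1 (chr7:102417401-102424500), had H3K27me3 values of 2092 and 2069 in KO, against 2792 and 3318 in Cre, in the authors' deposited list. Another region, over one end of Stim1 and reaching to 845 bases from Rrm1 (chr7:102435451-102440850), had deposited values of 892 and 959 in KO, against 1729 and 1669 in Cre. Both KO values lay below both Cre values in each, and the KO libraries differed little from each other. The limma differences were -0.55 (SE 0.18, adjusted p = 0.322) and -0.88 (SE 0.23, unadjusted p = 0.00209, adjusted p = 0.322). Mef2c at this pair of genes was lower at 9 regions and higher at 9, against 61.7% lower of all listed Mef2c regions. Only part of Stim1 lies in the window.

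Some of the strongest regions lay at no protein-coding gene or receptor. The strongest G9a region of the window (chr7:103429151-103430300) had 13 and 22 in KO, against 203 and 425 in Cre, in the authors' deposited list. The limma difference was -4.04 (SE 0.82, unadjusted p = 0.00133, adjusted p = 0.454). For H3K27me3 the strongest region higher in KO (chr7:103397751-103398600) had deposited values of 154 and 285 in KO, against 56 and 50 in Cre. KO and Cre were apart in both. The widest Mef2c region, at Fam160a2 (chr7:105384051-105386350), had 630 and 220 in KO, against 298 and 84 in Cre, in the authors' deposited list, and its values overlapped.

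Regions of different targets overlapped by at least 1 base, which was described and not tested. Of the 496 G9a regions lower in KO, 127 (25.6%) overlapped lower H3K9me2 regions, against 24.7% of all listed G9a regions lower in KO. Higher H3K9me2 regions were met by 199 (40.1%, against 30.3%). Lower H3K27me3 regions were met by 193 (38.9%, against 37.3%) and lower Mef2c regions by 176 (35.5%, against 29.9%). Of the 268 G9a regions higher in KO, 115 (42.9%) met higher H3K9me2 regions as well. The share over all listed G9a regions higher in KO is not given, so this count is no result about the cluster. Listed H3K9me2 regions covered 27.6% of the window, against 19.9% of the genome, and the part of this in the overlaps was not tested. Seen from the other side, 128 of 411 lower H3K9me2 regions (31.1%, against 32.7% in the whole list) and 195 of 672 higher ones (29.0%, against 26.9%) overlapped a lower G9a region. Among G9a regions lower in KO, 24 (4.84%, against 4.67% in the whole list) overlapped lower regions of all 3 other targets, and 6 of these touched a receptor gene. These 6 were Olfr577, Olfr69, Olfr650-ps1, Olfr658, Olfr680-ps1 and Olfr687. Other genes among the 24 were Stim1, Hbb-bh2, Hbb-bh1, Ubqln5, Ubqlnl, Olfm5, Trim30a, Trim30c, Trim30d and Usp17le.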

How the data were processed

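ChIP-seq was done for G9a, H3K9me2, H3K27me3 and Mef2c (antibodies Sigma G6919, Abcam ab1220, Millipore 07-449 and Abcam ab43796, per the labels). The submitters' processing notes name BWA 0.7.10-r789, SAMtools 1.1 and mm10 (GRCm38). The authors deposited 1 list per target. Each region carries a direction and a text cell of 5 numbers, namely 2 Cre values, 2 KO values and a -log10 p-value, whose scale (counts, signal or other unit) is not stated. The smallest -log10 p listed was 2. No source used here names the region caller, the normalization, a use of the input or the depth. No count model was therefore used, and precision rests on 2 libraries per group. The order of values was taken from the names of the lists. The series text writes H3K27me2 at one place, and the labels' H3K27me3 was used.

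From these, log2 ratios of means were computed with a pseudocount of 1. limma 3.58.1 (R 4.3.3; trend, log2(value + 1), tested on simulated data) was fitted over all listed regions of each target, with Benjamini-Hochberg adjustment and a threshold of 0.05. Python 3.11.15, pandas 2.3.3 and SciPy 1.17.1 did the rest. Genes came from RefSeq spans without exons, so exon or intron is not given. Regions were named by rule. Per target and direction these were the 2 with the highest -log10 p at receptors, 1 at other genes and the highest of the window. To these came the widest region, the one with the highest mean value, all regions at Hbb genes, and the strongest region of each target at 5 receptors met by all lists. Upstream stretches and the 7-bin stretch were chosen after their values were seen. The members and lists were chosen with earlier results of these data known. Alternatives were a pseudocount of 10, scaling to equal medians, -log10 p of at least 10, mean values at or above the list median, covered bases, other gene windows, other overlaps and leaving out each value. One gene of the window is not reported here.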

Additional observations from a re-analysis of the deposited data

How the results depend on the processing

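No paired analysis was possible because the values in the lists carry no replicate numbers. The share of regions lower in KO kept its side of 50% with scaled libraries, with regions of -log10 p of at least 10 or of higher values, with any overlap with the window and over covered bases. With -log10 p of at least 10 it was 73.6% (G9a), 23.7% (H3K9me2), 83.7% (H3K27me3) and 83.2% (Mef2c). KO and Cre were then apart at 92.0%, 94.1%, 93.8% and 96.8% of regions, and the median log2 ratios were -1.49, 1.44, -1.22 and -1.78. At receptors the shares lower in KO were then 76.7%, 26.0%, 87.5% and 80.9%, and at neither 71.8%, 21.4%, 79.3% and 89.4%. At other genes they were 28.6% for H3K9me2 and 87.5% for H3K27me3. H3K27me3 was lower at 73.5% of regions at or above the list's median value (log2 of sums -0.55) and over 73.4% of covered bases. Shares over all listed regions under these settings are not given, so none of these is a result about the cluster. Scaling to equal medians gave median log2 ratios of -0.47, 0.45, -0.45 and -0.51 and log2 ratios of sums of -0.047, 0.0079, -0.18 and -0.15. A pseudocount of 10 gave Mef2c a median of -0.73.

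Gene counts moved more, and shares over all genes are not given for these settings. With -log10 p of at least 10, receptors with only lower regions numbered 27 for G9a and 22 for Mef2c, and with only higher ones 7 for G9a, 3 for H3K27me3 and 3 for Mef2c. Other genes with only higher regions then numbered 3 for G9a, 13 for H3K9me2 and 0 for H3K27me3. With the gene span alone, 29 receptors had only lower H3K9me2 and 19 only higher H3K27me3 regions, and other genes with only higher ones numbered 2 (G9a), 5 (H3K9me2), 4 (H3K27me3) and 4 (Mef2c). With 5 kb, receptors with only higher regions numbered 8 for G9a, 17 for H3K9me2 and 12 for Mef2c, and 5 had only lower H3K9me2 ones. Other genes with only higher regions then numbered 0 for G9a, 1 for H3K27me3 and 0 for Mef2c, and 1 had only lower H3K9me2 ones. With an overlap of 50% of the shorter region, 46.9% of G9a regions overlapped H3K9me2, 40.6% H3K27me3 and 35.6% Mef2c, 35.2% of H3K9me2 regions overlapped H3K27me3 and 29.6% Mef2c, and 33.5% of H3K27me3 regions overlapped Mef2c.

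Leaving out each value in turn, the lone value being assumed to vary like the others, gave G9a medians of -0.70 to -0.44, log2 sums of -0.39 to -0.36, 17 to 244 regions with an unadjusted p under 0.05 and 0 to 81 with an adjusted one. H3K9me2 gave medians of 0.43 to 0.64, sums of 0.18 to 0.42 and 38 to 296 regions. H3K27me3 gave -0.70 to -0.52, -0.52 to -0.41 and 54 to 179, and Mef2c -0.76 to -0.59, -0.56 to -0.39 and 36 to 178. Among named regions, 5 limma differences turned round. Without the second Cre value they were -0.20 for H3K9me2 at Hbb-bh3 (2.30 without the first), -0.14 for H3K27me3 at Hbb-bt (1.75 without the first) and -0.26 for H3K27me3 at Hbb-bh1 (1.46 without the first). H3K9me2 at Hbb-bh2 was 0.23 without the first Cre value and -1.70 without the second. Mef2c at Olfr612 was -0.18 without the second KO value and 2.38 without the first. The cause was not tested.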
